A study of Mus musculus with 12 samples.

Results

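Cells labelled c-kit+ stem cells were compared with cells labelled CD44+ stromal cells, both taken from primary cultures of whole mouse bone marrow that had been given 17β-estradiol. The arrays were chosen by their titles, and these were 6 of the 12 arrays of the study, 3 for each cell fraction. All mice were female C57BL/6 animals aged 6 weeks. Treatment lasted 1 week, with 17β-estradiol, the main estrogen of the circulation, at 1 nM, and control cultures received none. The 6 arrays of the control cultures, again 3 for each fraction, entered the shared estimate of spread and served as a second look at the same contrast. The labels do not say how the fractions were separated, nor whether replicates were separate cultures or animals. The p-values therefore measure only the spread between these samples, which may be technical. With 3 arrays a group, precision is limited throughout by their number.

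Bone marrow holds blood-forming cells and the stromal cells that support them. Kit is the receptor for stem cell factor and marks stem cells, progenitors and mast cells, while CD44 is a receptor for hyaluronan found on stromal cells and on most leukocytes. Stromal cells make the collagen-rich matrix, contract through actin and myosin, and secrete factors that hold and feed blood-forming cells. In long cultures of whole marrow, macrophages commonly adhere together with the stroma.

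Expression is given as deposited, on a log2 scale, so that a difference of 1 is a 2-fold difference, and differences are c-kit+ minus CD44+. Where a gene had several probe sets, the brightest by its mean over all arrays stood for it, and 18193 genes were read in this way. As a guide to background, 10 probe sets of 4 Y-linked genes, which female cells lack, read between 2.76 and 3.98 on the 6 arrays. Another 3 probe sets, of Sry and Zfy2, read between 3.16 and 6.37 and were not used for that guide. With them the guide would reach 6.37, so readings called near background rest on that choice. Correlation between arrays of a group ran from 0.987 to 0.997, and between the fractions of the estradiol cultures from 0.985 to 0.993. RNA quality differed between arrays and, by Actb, between the fractions. The 3′ minus 5′ signal of Actb, which grows as RNA is shortened, was 4.68, 2.59 and 2.34 on the c-kit+ arrays and 2.14, 1.69 and 1.76 on the CD44+ arrays (difference 1.34, exact permutation test, two-sided, p = 0.1, the smallest p that 3 arrays against 3 allow, 0.2 after adjustment over the 2 controls). For Gapdh these values were 6.17, 4.59 and 4.23 against 4.31, 3.32 and 3.5 (difference 1.29, exact p = 0.2, adjusted 0.2), with c-kit+ replicate 1 the highest in both. For Actb every c-kit+ array lay above every CD44+ array, so RNA quality by that measure and cell fraction cannot be told apart. Each measure was also entered as a covariate, and counts with it are given for the gene lists in which genes passed. A covariate tied to the fraction costs power, so why a call was lost with it was not tested.

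The transcript that gives the c-kit+ fraction its label did not separate the fractions. Kit read 3.94, 3.92 and 3.97 on the arrays labelled c-kit+ and 4.09, 3.86 and 3.84 on those labelled CD44+. These levels overlapped and lay close to the Y-linked probe sets of the guide, with a difference of 0.01 (SE 0.12, 95% interval -0.25 to 0.27, limma adjusted p 0.995). The Kit transcript thus goes against the label, and the samples are called the arrays labelled c-kit+ in what follows, or c-kit+ for short. Cd44 read 12.05, 12.02 and 12.34 on the c-kit+ arrays and 12.28, 12.46 and 12.25 on the CD44+ arrays, high in both fractions and overlapping (difference -0.19, SE 0.14, adjusted p 0.782).

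Both fractions carried high levels of leukocyte and macrophage transcripts. Ptprc, which encodes the pan-leukocyte antigen CD45, read 13.13, 13.13 and 13.29 on the c-kit+ arrays and 13.17, 13.27 and 13.25 on the CD44+ arrays (difference -0.04, SE 0.16, 95% interval -0.38 to 0.3, adjusted p 0.98). Csf1r, the receptor for macrophage colony-stimulating factor, read 14.07, 14.06 and 14.09 against 14.03, 14.05 and 14.04. Adgre1, a surface antigen of mouse macrophages, read 13.48, 13.64 and 13.64 against 13.33, 13.69 and 13.54. Csf1r and Adgre1 are named here after their values were seen. None of the 18 pan-leukocyte genes passed (smallest adjusted p 0.382, for Hcls1). The median level of the 23 measured macrophage and monocyte genes was 11.83, 12 and 11.8 on the c-kit+ arrays and 11.54, 11.38 and 11.72 on the CD44+ arrays.

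Markers of several other blood cells were low in both. The median of 10 mast cell and basophil genes lay between 3.64 and 4.14 on the 6 arrays, and that of 10 erythroid genes between 3.78 and 4.08. For 16 neutrophil and granule genes it lay between 4.6 and 4.94, and for 13 T and NK cell genes between 4.14 and 4.43. No member of these 4 lists passed, nor did any of the 8 megakaryocyte genes, whose median was higher, between 5.49 and 5.86. Cpa3, a mast cell protease, read 6.31 on c-kit+ replicate 1 and between 3.73 and 4.19 on the other five arrays, and its difference of 0.61 did not pass (SE 0.49, adjusted p 0.829). Without c-kit+ replicate 1 the fractions still differed at 332 genes, 34 higher and 298 lower in c-kit+.

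**Figure D1:**
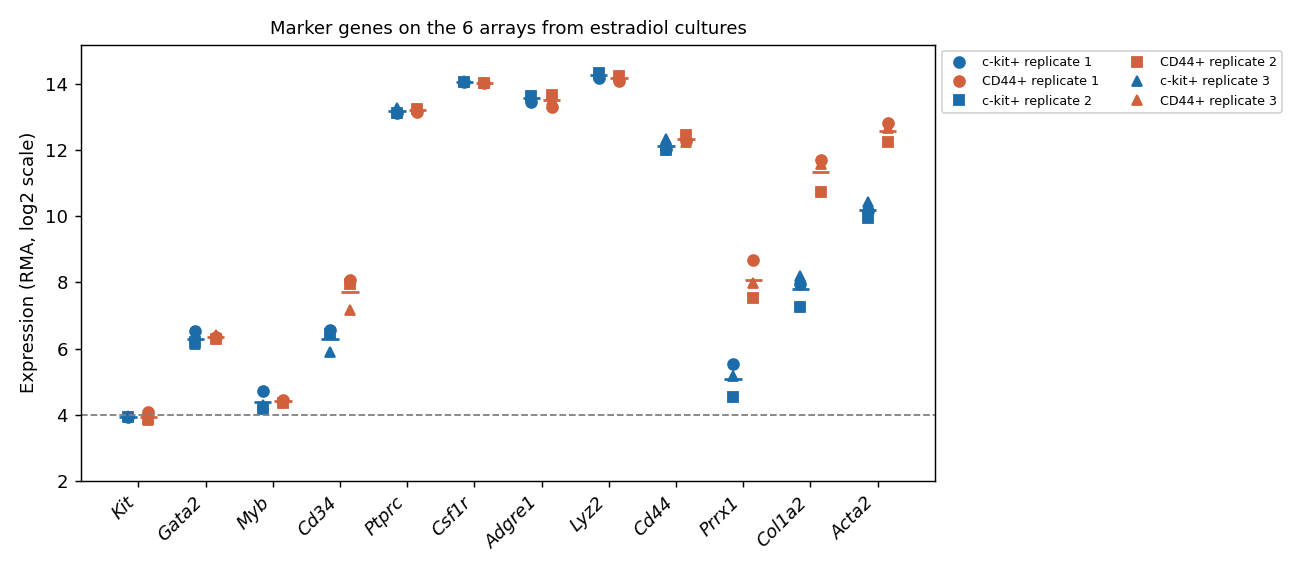
Expression of 12 marker genes (log2 scale, vertical axis) on each of the 6 arrays from estradiol cultures, blue for c-kit+ and red for CD44+. Symbols give replicate numbers and bars group means. The dashed line at 3.98 is the highest value of the 10 Y-linked probe sets used as a guide. Kit lies at the dashed line in both fractions, Ptprc, Csf1r, Adgre1 and Lyz2 lie above 13 in both, and Cd34, Prrx1, Col1a2 and Acta2 lie lower on every c-kit+ array than on any CD44+ array.

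Most of the genes that differed between the fractions were lower in c-kit+. Of 18193 genes, 483 (2.65%) passed an adjusted p of 0.05, 424 lower in c-kit+ (2.33%) and 59 higher (0.324%). On none of these 483 genes did the groups overlap, which also held for 8.15% of all genes with c-kit+ below and 10.0% with c-kit+ above. Among the lower genes, 291 fell by at least 2-fold, 122 by at least 4-fold and 32 by at least 8-fold, with a median of -1.39. Of the higher genes, 4 rose by at least 2-fold and none by 4-fold, with a median of 0.69. The median over all genes was 0.026. In 63 of the 424 lower genes the c-kit+ mean was at or under 3.98, the highest value of the guide probe sets, so that their folds depend on that low level. In 5 of the 424 the CD44+ mean was at or under it too, and so it was in 3 of the 59 higher genes. These are bulk RNA samples, in which fewer cells of a type and less RNA per cell cannot be told apart. The counts rested partly on single arrays, with 273 genes passing without CD44+ replicate 1 and 269 without c-kit+ replicate 2. The Actb covariate left 328 genes, 282 of them among the 483, and the Gapdh covariate left 366, of them 295 among the 483. The main fit left the replicate number out. With it as a block on the 6 arrays alone 1143 genes passed, 399 higher and 744 lower.

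**Figure D2:**
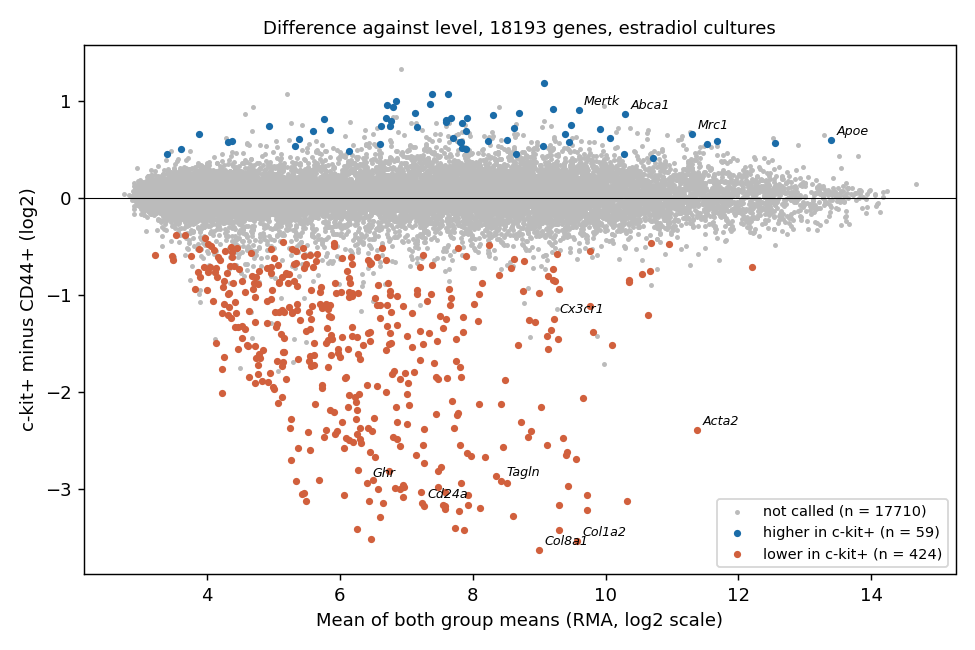
Difference between the fractions (c-kit+ minus CD44+, log2, vertical axis) against the mean of both group means (log2 scale, horizontal axis) for 18193 genes in estradiol cultures, with genes that passed in blue (59 higher in c-kit+) or red (424 lower) and all others in grey. The lower genes reach below -3 over a wide range of levels, while the higher genes stay below 1.2.

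Most genes for collagen chains, the fibres and sheets of the matrix, were lower in c-kit+. Of 21 chains, 13 were lower and none higher, where 2.33% of all genes were lower and 0.324% higher. The list median was -1.87 against 0.026 over all genes (-2.94 among genes at or above the median level). That level, here and in the lists below, is the mean over all 12 arrays. A gene high only in CD44+ can pass it, so such medians lean towards falls and are no support for them. Col1a2, a chain of type I collagen, read 7.95, 7.26 and 8.2 on the c-kit+ arrays and 11.7, 10.74 and 11.6 on the CD44+ arrays. The highest c-kit+ array was thus below the lowest CD44+ array by a wide margin, a difference of -3.54 (SE 0.4, 11.6-fold lower, adjusted p 0.000413). Col5a2, a chain of type V collagen that takes part in fibril assembly, read 8.12, 6.82 and 7.84 against 11.42, 10.71 and 10.92 (difference -3.42, SE 0.36, 10.7-fold lower, adjusted p 0.00031). Col3a1, which forms type III collagen, read 7.09, 5.24 and 6.15 against 10.13, 8.71 and 9.92 (difference -3.42, SE 0.5, adjusted p 0.00177). In both fractions replicate 2 was the lowest of the 3 for these genes.

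The fall spanned fibrillar, network and beaded-filament collagens. The other passed chains of types I, V and XI were Col5a1 (-2.98), Col1a1 (-1.87) and Col11a1 (-1.49), and Col14a1, a fibril-associated chain, fell by 0.52. The type VI chains Col6a1, Col6a2 and Col6a3 differed by -3.04, -2.94 and -2.56, and the basement membrane chains Col4a1 and Col4a2 by -2.41 and -2.14. Col8a1, a short-chain collagen of vessels, had the largest difference among the genes that passed, -3.63 (SE 0.76, adjusted p 0.0197), from 7.25, 6.17 and 8.15 against 11.15, 10.41 and 10.91. Its call was lost without CD44+ replicate 1 (adjusted p 0.101), c-kit+ replicate 1 (0.0732), c-kit+ replicate 2 (0.119) or CD44+ replicate 3 (0.082), and with the Actb (0.213) or Gapdh (0.186) covariate. A robust trend in the moderation also ended the call of Col8a1. The 8 chains that did not pass ran from -0.74 for Col18a1 (adjusted p 0.0888) to 0.07 for Col27a1. With either covariate 12 chains were lower, and leaving out single estradiol arrays gave between 10 and 13. Probe sets of a gene did not always move together, as 2 of the 3 for Col1a2 passed, with differences from -3.54 to -0.32.

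Genes that fold, trim and cross-link collagen were lower too, 8 of 17 with none higher (list median -0.45). Serpinh1, the collagen chaperone HSP47, read 6.84, 5.88 and 6.33 on the c-kit+ arrays and 10.04, 9.04 and 9.48 on the CD44+ arrays (difference -3.17, SE 0.31, 8.97-fold lower, adjusted p 0.000226). Lox, the enzyme that cross-links collagen and elastin, read 7.97, 7.48 and 8.06 against 10.84, 9.81 and 10.51 (difference -2.55, SE 0.31, adjusted p 0.000514). Neither gene overlapped between the fractions. Pcolce, which helps cleave procollagen, differed by -2.65 and Plod2, a lysyl hydroxylase, by -2.28. The remaining passed members, Loxl1, Pcolce2, Loxl3 and Bmp1, ran from -1.82 to -0.64. With either covariate 6 of the 17 were lower.

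Matricellular and elastic-fibre genes, whose products tune how cells grip the matrix, showed 13 of 23 lower and none higher (list median -1.43, but -0.78 with probe sets averaged and -2.29 among genes at or above the median level). Fn1, which encodes fibronectin, read 9.3, 7.83 and 9.15 on the c-kit+ arrays and 12.43, 11.34 and 11.88 on the CD44+ arrays (difference -3.13, SE 0.39, 8.73-fold lower, adjusted p 0.000711). Thbs2, a thrombospondin, read 5.39, 5.42 and 5.19 against 8.95, 7.72 and 8.3 (difference -2.99, SE 0.27, adjusted p 0.000224). Efemp1, a fibulin, differed by -3.3 and Ccn2, the connective tissue growth factor, by -2.62. Thbs1, Sparc, Tnc, Fbln2, Ccn3, Ccn1, Fbln5, Ccn5 and Ccn4 also passed, from -2.55 to -0.95. Tgfbi, a further matrix protein, was at a high level in both fractions and did not pass (-0.3, adjusted p 0.697). With either covariate 11 of the 23 were lower.

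Among 13 small leucine-rich proteoglycans, which bind collagen fibrils, only Bgn and Ogn passed, and the list median was -0.12. Among genes at or above the median level it was -3.0, which is the value of Ogn. Bgn, biglycan, read 8.46, 7.43 and 8.47 against 11.74, 10.78 and 11.48 (difference -3.22, SE 0.35, 9.29-fold lower, adjusted p 0.000387), and all 3 of its probe sets passed. Ogn, osteoglycin, differed by -3.0 (SE 0.47, adjusted p 0.0026). Dcn, decorin, read 5.23, 4.95 and 5.24 against 5.22, 5.3 and 5.29, so that its groups overlapped, and did not pass (adjusted p 0.905). Both Bgn and Ogn also passed with either covariate.

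Of 21 metalloproteinases, ADAMTS proteases and their inhibitors, 8 were lower and none higher (list median -0.19, but -1.51 among genes at or above the median level). Timp1, an inhibitor of metalloproteinases, read 6.33, 5.65 and 6.22 on the c-kit+ arrays and 9.26, 8.59 and 8.81 on the CD44+ arrays (difference -2.82, SE 0.29, 7.06-fold lower, adjusted p 0.000286). Mmp2, gelatinase A, read 6.74, 6.54 and 6.64 against 9.16, 8.4 and 9.09 (difference -2.24, SE 0.25, adjusted p 0.000431). A protease and an inhibitor were thus lower together. Adamts1 differed by -2.4 and Timp3 by -1.81, and the other four, Mmp23, Adamts5, Adamts4 and Adamts12, ran from -1.51 to -0.55. With either covariate 5 of the 21 were lower, and without single arrays between 6 and 8.

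Contractile genes were lower across the actin and myosin machinery, 12 of 20 with none higher (list median -1.5, but -0.81 with probe sets averaged). Tagln, transgelin, an actin-binding protein of smooth muscle, read 6.86, 6.71 and 7.34 on the c-kit+ arrays and 10.18, 9.58 and 9.92 on the CD44+ arrays (difference -2.92, SE 0.26, 7.59-fold lower, adjusted p 0.000224). Acta2, smooth muscle actin, read 10.16, 9.95 and 10.44 against 12.83, 12.25 and 12.67 (difference -2.4, SE 0.22, 5.27-fold lower, adjusted p 0.000224). Acta2 was thus well above background in c-kit+ as well, and 1 of its 3 probe sets passed, with differences from -2.4 to 0.06. Cald1, caldesmon, differed by -2.69 and Tpm2, a tropomyosin, by -2.48. Mylk, Actg2, Myl9, Cnn1, Csrp2, Tpm1, Cnn2 and Vcl also passed, from -2.32 to -1.38. Myh11, the heavy chain of mature smooth muscle, did not pass and read near background (-0.01, adjusted p 0.996). With either covariate 12 of the 20 were lower, and leaving out single estradiol arrays gave 12 or 13.

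Several contractile genes are known targets of serum response factor, which binds a sequence named the CArG box. The 250 bases before the RefSeq start of each gene (build GRCm38.p6) were searched for it, as CC, then 6 letters of A or T, then GG, a pattern that reads the same class on both strands. It was found for 3 of the 9 lower contractile genes with a promoter entry (33.3%), for 1 of the 7 that did not pass (14.3%, Srf itself) and for 10 of 320 lower genes of any kind (3.12%), against 207 of 14452 genes tested (1.43%) and 482 of 32851 windows in the table (1.47%). The 3 windows are shown because they carry the letters that the counts rest on, with the box in capitals and the gene on the plus strand in each. They are Cnn2 at chr10:79988350-79988599, Myl9 at chr2:156775214-156775463 and Vcl at chr14:20929148-20929397.
Cnn2: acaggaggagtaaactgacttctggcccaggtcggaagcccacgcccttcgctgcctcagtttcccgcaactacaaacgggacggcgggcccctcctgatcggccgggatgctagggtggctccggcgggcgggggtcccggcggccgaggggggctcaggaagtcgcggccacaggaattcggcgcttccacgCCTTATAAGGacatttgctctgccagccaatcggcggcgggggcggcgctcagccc
Myl9: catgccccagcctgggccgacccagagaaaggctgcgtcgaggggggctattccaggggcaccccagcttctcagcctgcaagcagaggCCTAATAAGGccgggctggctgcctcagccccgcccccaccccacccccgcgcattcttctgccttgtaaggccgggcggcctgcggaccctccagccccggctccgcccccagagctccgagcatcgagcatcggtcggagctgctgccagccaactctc
Vcl: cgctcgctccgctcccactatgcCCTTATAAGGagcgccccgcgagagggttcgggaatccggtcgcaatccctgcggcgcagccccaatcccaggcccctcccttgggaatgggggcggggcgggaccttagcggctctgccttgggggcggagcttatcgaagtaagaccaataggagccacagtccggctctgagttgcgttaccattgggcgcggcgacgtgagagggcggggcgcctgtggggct
The box began 56 bases before the start in Cnn2, 161 in Myl9 and 227 in Vcl. A match is a description of these letters only, and no match says nothing of the factor. In the arrays Cnn2, an actin-binding calponin, read 8.51, 8.72 and 8.45 on c-kit+ and 10.42, 9.63 and 9.98 on CD44+ (difference -1.45, SE 0.21, adjusted p 0.00186). Myl9, the regulatory light chain of myosin, differed by -2.16 and Vcl, the focal adhesion protein vinculin, by -1.38. Srf itself, the gene for the factor, was at -0.03 (adjusted p 0.988).

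**Figure D3:**
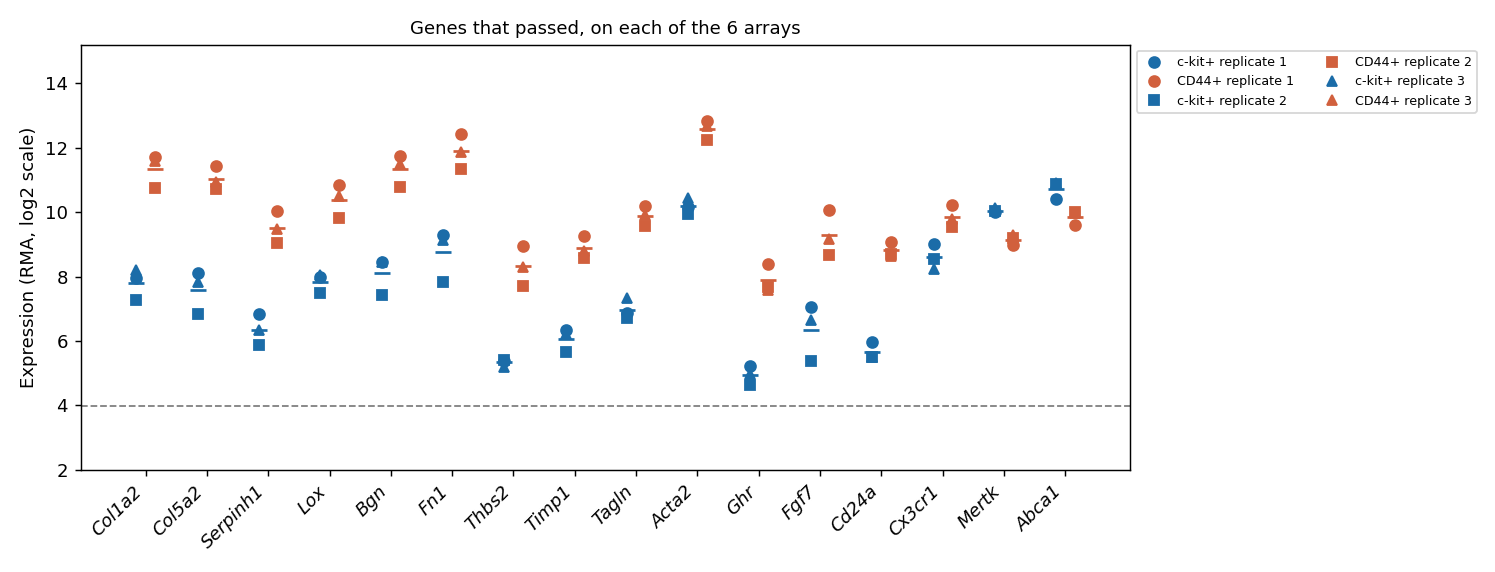
Expression (log2 scale, vertical axis) of 16 genes that passed, on each of the 6 arrays, blue for c-kit+ and red for CD44+. Symbols give replicate numbers and bars group means. The dashed line at 3.98 is the highest value of the 10 Y-linked probe sets used as a guide. No gene overlaps between the fractions, and 14 of the genes are lower in c-kit+ while Mertk and Abca1 are higher.

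Classical stromal markers moved in part. Of 19 mesenchymal stromal genes 6 were lower and none higher (list median -0.26, but -1.42 among genes at or above the median level). Prrx1, a homeobox factor of limb and marrow mesenchyme, read 5.52, 4.53 and 5.16 against 8.69, 7.54 and 7.99 (difference -3.0, SE 0.34, 8.02-fold lower, adjusted p 0.000413). Cdh11, a cadherin of mesenchymal cells, differed by -3.06 from c-kit+ values of 3.95, 3.54 and 4.2, close to background. Snai2, a transcription factor of mesenchymal cells, differed by -2.67, Cxcl12, the chemokine that holds blood stem cells in the marrow, by -2.57 and Pdgfra by -1.59. Pdgfrb, a receptor for platelet-derived growth factor, differed by -2.91 (adjusted p 0.00811), but not without CD44+ replicate 1 (0.0544) or c-kit+ replicate 2 (0.0603). Lepr, Nt5e, Eng, Thy1 and Vcam1, commonly used to mark stromal cells, did not pass, at values between -0.27 and 0.05. With either covariate 5 of the 19 were lower. With probe sets averaged the falls were smaller, at -1.15 for Prrx1, -1.68 for Cdh11, -1.74 for Pdgfrb and -1.83 for Snai2, and each still passed.

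Few genes of the bone and cartilage lists passed. Among 12 osteoblast and osteocyte genes Postn (-2.0, SE 0.26, adjusted p 0.000785) and Dmp1 (-1.21, adjusted p 0.00621) were lower, and among 12 chondrocyte genes Col2a1 (-0.69, adjusted p 0.00255). The osteoblast factor Sp7, bone sialoprotein Ibsp and Alpl, alkaline phosphatase, were between -0.01 and 0.05 and did not pass. Of 15 osteoclast genes, Ctsk, cathepsin K, and Dcstamp, a fusion receptor, were lower by -0.96 and -0.83 (adjusted p 0.0169 and 0.0399). They made up 13.3% of the list, against 2.33% of all genes that were lower. No gene of the osteoclast list passed without c-kit+ replicate 2 (Ctsk 0.0629, Dcstamp 0.183) or without c-kit+ replicate 3 (0.0669 and 0.142). Ctsk was also lost without c-kit+ replicate 1 (0.0673) or CD44+ replicate 3 (0.0935), and Dcstamp without CD44+ replicate 1 (0.202) or replicate 2 (0.146). Dcstamp was lost too over every probe set, after quantile normalization and after median centring (0.0564). With either covariate 2 osteoblast, 1 chondrocyte and 1 osteoclast gene were lower, Ctsk no longer among them (Actb 0.182, Gapdh 0.185). The median of the osteoblast list was -0.01, but -2.0 among genes at or above the median level, which is the value of Postn.

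Secreted signals and their receptors were lower in several pathways. In the TGF-beta and BMP list 8 of 23 were lower and none higher (list median -0.16). Tgfb3, a TGF-beta ligand, read 5.34, 4.8 and 5.36 against 7.66, 6.8 and 7.6 (difference -2.19, SE 0.27, 4.57-fold lower, adjusted p 0.000573). Fst, the activin antagonist follistatin, differed by -2.19, Tgfbr3, the coreceptor betaglycan, by -2.1 and Inhba, an activin subunit, by -1.79. Tgfb2, Ltbp1, Grem1 and Bmpr1a also passed, from -1.69 to -1.03. Without CD44+ replicate 1 the list held 6 lower genes, and with the Actb covariate 7, where Inhba was at an adjusted p of 0.055.

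In the growth hormone and IGF list 4 of 13 were lower and none higher, with a median of 0. Ghr, the growth hormone receptor, read 5.21, 4.63 and 4.98 against 8.4, 7.66 and 7.58 (difference -2.94, SE 0.27, 7.67-fold lower, adjusted p 0.000224). Irs1, which couples the insulin and IGF receptors to their kinases, differed by -2.62 and Igfbp7, a binding protein, by -2.47. Over the alternatives Ghr ran from -3.11 to -1.55 and Igfbp7 from -2.73 to -0.93, and both kept their call. Igf1r, the IGF-1 receptor, differed by only -0.61 (adjusted p 0.0344) and was lost on leaving out any array other than CD44+ replicate 2 (between 0.0601 and 0.185). It was also lost with probe sets averaged (0.055) and with the Actb (0.177) or Gapdh (0.124) covariate, which left 3 of the 13 lower.

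In the Wnt list 3 of 20 were lower (15%, against 2.33% of all genes). These were the secreted inhibitors Dkk3 (-1.91, SE 0.27, adjusted p 0.00146) and Sfrp2 (-1.41, SE 0.21, adjusted p 0.00186) and the receptor Fzd2 (-1.1, SE 0.22, adjusted p 0.0132). Fzd2 was lost without CD44+ replicate 1 (0.0859), c-kit+ replicate 1 (0.0571) or c-kit+ replicate 2 (0.0783) and with the Actb (0.114) or Gapdh (0.129) covariate, and with either covariate 2 of the 20 were lower. Rspo2, an R-spondin that amplifies Wnt signals and stood outside that list, was among the 14 largest falls, at 7.46, 6.23 and 7.2 against 10.66, 9.74 and 10.33 (difference -3.28, SE 0.42, adjusted p 0.000837).

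Of 16 niche factors, which support blood-forming cells, 6 were lower and none higher (list median -0.46, but -0.2 with probe sets averaged and -0.74 among genes at or above the median level). Fgf7, a growth factor for epithelia, read 7.05, 5.36 and 6.64 against 10.05, 8.65 and 9.17 (difference -2.94, SE 0.43, 7.69-fold lower, adjusted p 0.0017). Csf1 and Vegfc, growth factors for macrophages and for lymphatic vessels, differed by -1.23 and -1.18. Tnfrsf11b, osteoprotegerin, which blocks osteoclast formation, differed by -1.64 (adjusted p 0.0125) but not without c-kit+ replicate 1 (0.0512) or replicate 2 (0.0692). Angpt1, a ligand of the Tie2 receptor, differed by -1.33 (adjusted p 0.0327) but not without CD44+ replicate 1 (0.119) or 3 (0.137) or c-kit+ replicate 2 (0.153) or 3 (0.127), with probe sets averaged (-0.67, 0.0575), or with the Actb (0.067) or Gapdh (0.113) covariate. A robust trend also ended the call of Angpt1. Foxc1, a transcription factor of niche cells, differed by -1.28 (adjusted p 0.00794) but not without CD44+ replicate 1 (0.0512) or 3 (0.0517). Kitl, which encodes stem cell factor, read 8.33, 7.69 and 8.15 against 9.12, 8.52 and 8.72 and did not pass (-0.74, adjusted p 0.0659). With the Actb covariate 2 of the 16 were lower, Tnfrsf11b no longer among them (0.0514), and with the Gapdh covariate 5 were lower and 1 higher.

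Among 19 integrins and adhesion genes 3 were lower (15.8%, against 2.33% of all genes). Cdh2, N-cadherin, read 4.42, 3.61 and 3.69 against 7.32, 6.22 and 6.29 (difference -2.71, SE 0.4, adjusted p 0.0017). Ncam1 differed by -1.56, with 1 of 7 probe sets passing. Itgb7, a leukocyte integrin subunit, read 7.18, 7.38 and 6.93 against 8.69, 8.52 and 8.43 (difference -1.38, SE 0.13, adjusted p 0.000224), so that a gene of blood cells was among those lower in c-kit+. Ncam1 was lost when its probe sets were averaged (0.0519), and with either covariate 3 of the 19 were lower.

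**Figure D4:**
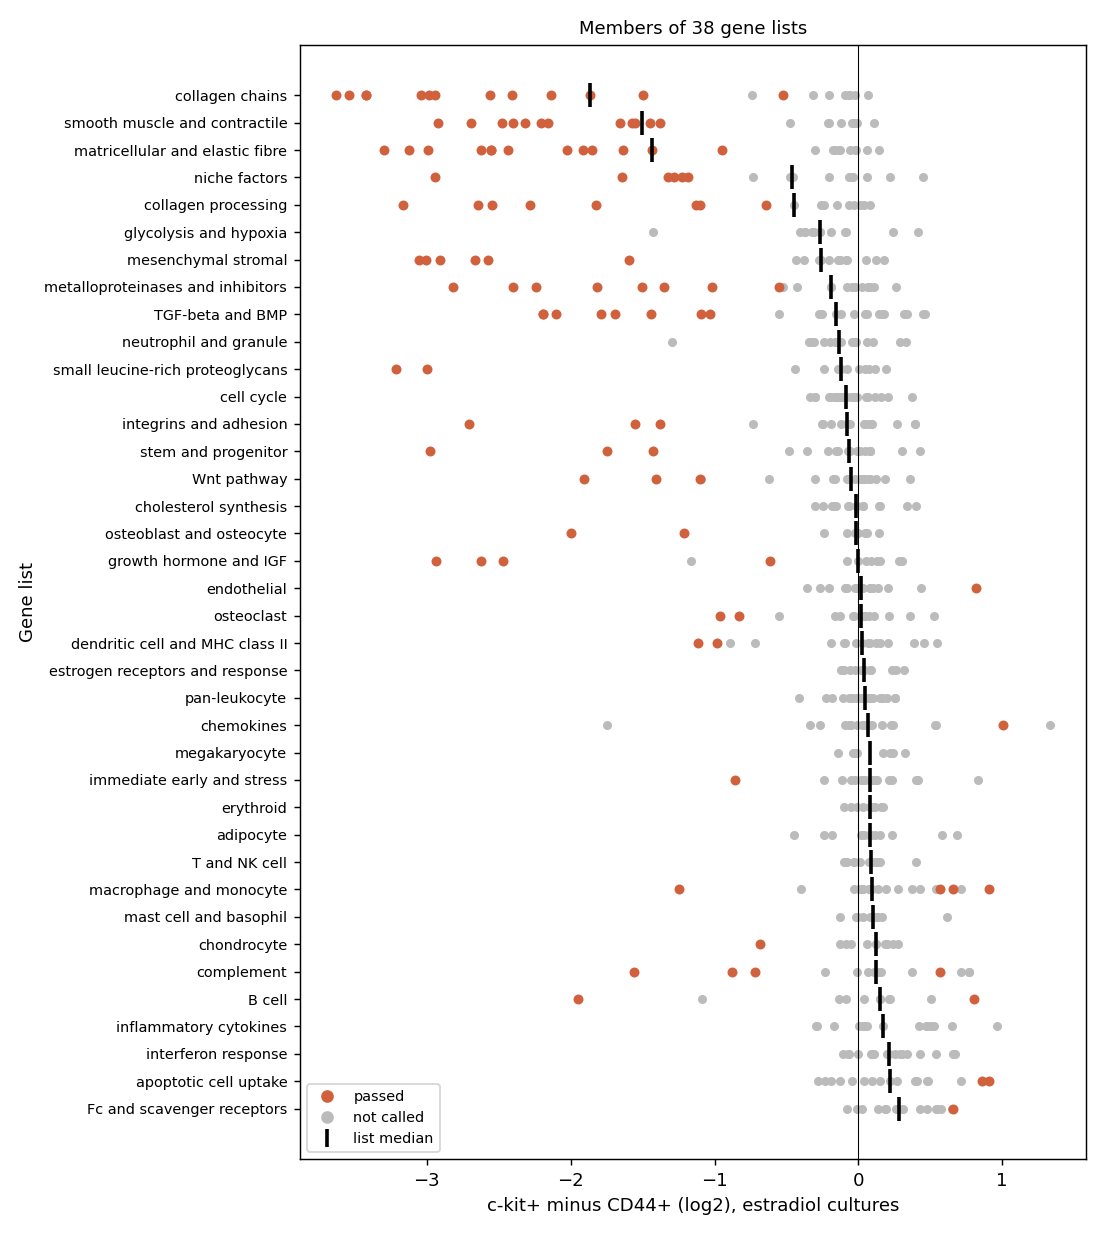
Difference between the fractions (c-kit+ minus CD44+, log2, horizontal axis) for every measured member of 38 gene lists (rows, ordered by median), with members that passed in red, others in grey and the list median as a black bar. The lists of collagen chains, contractile genes and matricellular genes have medians of -1.87, -1.5 and -1.43 (-1.52, -0.81 and -0.78 with probe sets averaged), while the other list medians lie between -0.46 and 0.29, and 4 of those others lie between -3.0 and -1.42 among genes at or above the median level.

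Outside the lists the largest falls included Hs6st2, an enzyme that sulfates heparan sulfate, Ccdc80, a matrix protein, Cyp1b1, a cytochrome that hydroxylates estradiol, and F2r, a thrombin receptor. Cyp1b1 read 6.68, 5.31 and 6.56 on the c-kit+ arrays and 10.03, 8.8 and 9.43 on the CD44+ arrays (difference -3.23, SE 0.37, 9.41-fold lower, adjusted p 0.000462). Hs6st2 differed by -3.42 and F2r by -3.2. The remaining falls named by the rule, Lhfp, Ccdc80, Phldb2 and Tm4sf1, lay between -3.52 and -3.18. All of these genes kept their call under every alternative tried, but several falls were smaller with probe sets averaged. They were then -0.97 for Hs6st2, -1.26 for Tm4sf1, -2.03 for Cyp1b1, -2.16 for Ccdc80 and -2.36 for F2r, while Lhfp and Phldb2 did not change. The smallest p of any gene belonged to Cd24a, a surface glycoprotein of immature and progenitor cells, named here after its value was seen. It read 5.98, 5.49 and 5.51 against 9.08, 8.71 and 8.65 (difference -3.15, SE 0.23, adjusted p 9.54e-05), and its 3 probe sets passed.

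In the main fit no gene of the stem and progenitor list passed as higher in the arrays labelled c-kit+. Of 18 measured, 3 were lower (16.7%, against 2.33% of all genes) and none higher (list median -0.07). Hoxa9, a homeobox factor of early blood cells, read 5.92, 5.86 and 6.18 on the c-kit+ arrays and 9.31, 9.03 and 8.56 on the CD44+ arrays (difference -2.98, SE 0.35, 7.89-fold lower, adjusted p 0.000479), and 1 of its 2 probe sets passed. Cd34, a surface antigen of progenitors and vessels, read 6.56, 6.44 and 5.89 against 8.07, 7.94 and 7.16 (difference -1.43, adjusted p 0.0318), and was lost without CD44+ replicate 1 (0.175) or 2 (0.125) and without c-kit+ replicate 1 (0.0631), 2 (0.0946) or 3 (0.134). Sox4, a factor of progenitors, differed by -1.75 (adjusted p 0.0375), lost without CD44+ replicate 1 (0.202) or 3 (0.125) or c-kit+ replicate 2 (0.188) or 3 (0.129), with the Actb (0.14) or Gapdh (0.0598) covariate, and with its probe sets averaged (-0.39, 0.0858). The Sox4 call was also lost over every probe set and with a robust trend. Gata2 and Myb, factors of early blood cells, were at -0.06 and -0.01 and did not pass. Fits with a covariate gave 2 lower genes in this list, and array weights 1 higher and 3 lower. In control cultures 1 gene of the list was higher and 1 lower.

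The genes higher in c-kit+ were fewer, and their differences smaller. Mertk, a macrophage receptor for apoptotic cells, read 10, 10.03 and 10.12 on the c-kit+ arrays and 8.97, 9.19 and 9.28 on the CD44+ arrays (difference 0.91, SE 0.14, 1.87-fold higher, adjusted p 0.00253), and kept its call under every alternative tried. Abca1, a cholesterol exporter, read 10.42, 10.86 and 10.89 against 9.61, 10.01 and 9.97 (difference 0.86, SE 0.16, 1.82-fold higher, adjusted p 0.00695), and was lost only without c-kit+ replicate 2 (0.0524). These were the 2 of 17 genes for the uptake of apoptotic cells that passed (11.8%, against 2.65% of all genes, list median 0.22). With either covariate 2 passed.

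The largest rise among the genes that passed was that of B430306N03Rik, at 9.63, 9.66 and 9.71 against 8.28, 8.65 and 8.51 (difference 1.19, SE 0.15, 2.27-fold higher, adjusted p 0.00077), which kept its call under every alternative tried. Ddhd1, a phospholipase, rose by 1.07 (SE 0.16, adjusted p 0.00193) and kept its call too. Pde7b, a cyclic AMP phosphodiesterase, rose by 1.07 (adjusted p 0.00797) and was lost when its probe sets were averaged (0.236). Npl, an enzyme of sialic acid breakdown, rose by 0.96 and was lost without CD44+ replicate 1 (0.0736) or c-kit+ replicate 1 (0.0554), 2 (0.058) or 3 (0.0571) and with the Gapdh covariate (0.1). Zfp90 rose by 0.94 and was lost without CD44+ replicate 3 (0.0516) and with the Actb (0.114) or Gapdh (0.118) covariate.

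The count of higher genes depended on single arrays. It was 16 without CD44+ replicate 1, 28 without replicate 2 and 19 without replicate 3, and 34, 17 and 52 without c-kit+ replicates 1, 2 and 3, against 59 with all. It was 33 with the Actb covariate (15 of them among the 59) and 39 with the Gapdh covariate (18 among the 59). Aif1, Adgb, Rhobtb1, Lrmda, Entpd1 and Tmem140, the other rises named by the rule besides Ccl12, were at 0.83 to 0.97 and each lost its call without 4 or more of the 6 arrays. With the replicate number as a block over the 12 arrays 134 genes were higher (0.737%) and 528 lower (2.90%), and 477 of the 483 genes were again called.

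Macrophage lists showed small differences in both directions. Of 23 macrophage and monocyte genes 3 were higher and 1 lower (17.4% passed, list median 0.1). Over all genes 2.65% passed, 0.324% higher and 2.33% lower. Besides Mertk, Mrc1, the mannose receptor, was higher by 0.66 (SE 0.15, adjusted p 0.0316), and C1qb, a chain of complement C1q, by 0.57 (SE 0.12, adjusted p 0.0207). Mrc1 read 11.72, 11.39 and 11.8 against 11.12, 10.7 and 11.12, and passed without c-kit+ replicate 2 but not without c-kit+ replicate 1 (0.131) or 3 (0.126) or CD44+ replicate 1 (0.062), 2 (0.138) or 3 (0.0558). C1qb read 12.89, 12.87 and 12.77 against 12.31, 12.16 and 12.34, and passed without c-kit+ replicate 3 but not without c-kit+ replicate 1 (0.0865) or 2 (0.0945) or CD44+ replicate 1 (0.0726), 2 (0.093) or 3 (0.0529). Cx3cr1, the fractalkine receptor of monocytes, went the other way, at 9.02, 8.54 and 8.24 against 10.23, 9.53 and 9.78 (difference -1.25, SE 0.21, adjusted p 0.00496), with 1 of its 2 probe sets passing. With either covariate 2 of the 23 were higher and 1 lower, with Mrc1 (Actb 0.145, Gapdh 0.204) and C1qb (0.206, 0.252) no longer among them. Of 17 Fc and scavenger receptors only Mrc1 passed (5.88%, against 2.65% of all genes, list median 0.29). Under the Actb covariate 1 gene of that list was higher and under the Gapdh covariate 2. Apoe, a lipid carrier made by macrophages and named after its value was seen, read 13.7, 13.82 and 13.56 against 13.12, 13.08 and 13.1 (difference 0.59, SE 0.12, adjusted p 0.0202).

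Among antigen-presenting and complement genes the direction was mixed. The MHC class II chains H2-Ab1 and H2-Eb1 were the 2 of 17 dendritic cell and MHC class II genes that passed, at -1.11 and -0.98 (adjusted p 0.0208 and 0.0323). They made up 11.8% of the list, where 2.33% of all genes were lower and 0.324% higher. H2-Ab1 was lost without CD44+ replicate 1 (0.0713) or 2 (0.0953) or c-kit+ replicate 1 (0.0865) or 3 (0.0921), and H2-Eb1 whichever of the 6 arrays was left out (between 0.0533 and 0.134). In that list 1 gene was higher and 1 lower with the Actb covariate, where H2-Ab1 was lost (0.0607), and 2 were higher and 2 lower with the Gapdh covariate. Of 14 complement genes 28.6% passed, against 2.65% of all genes. Masp1, a protease of the lectin pathway, Serping1 and C1s1 were lower by -1.56, -0.88 and -0.72, and C1qb higher. Masp1 was lost with the Actb (0.0591) and Gapdh (0.0706) covariates, and none of the 3 passed with either. No complement gene was higher with the Actb covariate and 1 was with the Gapdh covariate. Serping1 was lost without CD44+ replicate 1 (0.0684) or 3 (0.0639) and without c-kit+ replicate 1 (0.0739), 2 (0.135) or 3 (0.0724). C1s1 was lost without CD44+ replicate 1 (0.0624) or 3 (0.126) and without c-kit+ replicate 1 (0.116), 2 (0.0719) or 3 (0.0538). Median centring ended the C1s1 call too (0.0626).

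Few genes of the remaining lists passed. Single calls made up 6.25% of the endothelial, 4.55% of the chemokine and 5% of the immediate early and stress list. Over all genes 2.65% passed, so these calls say little of the lists. Of 11 B cell genes, Ebf1, a factor also made by stromal cells, was lower by -1.95 (SE 0.32, adjusted p 0.00377). With its probe sets averaged Ebf1 was at -0.89 and still passed. Cd22 was higher by 0.8 (adjusted p 0.0185) and was lost without CD44+ replicate 1 (0.102) or 3 (0.0634) or c-kit+ replicate 2 (0.0661) or 3 (0.0767) and with probe sets averaged (0.11), while with either covariate 1 B cell gene was higher and 1 lower. Of 16 endothelial genes Stab2, a scavenger receptor, was higher by 0.82 (adjusted p 0.0195), lost without CD44+ replicate 1 (0.12) or 3 (0.0577) or c-kit+ replicate 2 (0.0945) or 3 (0.0842) and with the Actb covariate (0.0622). Of 22 chemokines Ccl12 was higher by 1.0 (adjusted p 0.0229), lost without CD44+ replicate 1 (0.131) or 2 (0.0777) or c-kit+ replicate 2 (0.0503) or 3 (0.0644), and 1 chemokine was higher with the Actb covariate, and 1 higher and 1 lower with the Gapdh covariate. Of 20 immediate early and stress genes Klf4 was lower by -0.86 (adjusted p 0.0327) and was lost whichever of the 6 arrays was left out (between 0.0519 and 0.181), and the list held 1 higher and 1 lower gene with the Actb and 1 lower with the Gapdh covariate.

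No gene passed in the lists of 15 inflammatory cytokines, 17 interferon response genes, 27 cell cycle genes, 15 cholesterol synthesis genes, 13 glycolysis and hypoxia genes, 13 adipocyte genes and 14 estrogen receptors and response genes. The smallest adjusted p in these lists was 0.144, for Rsad2 of the interferon list. Other fits made some calls there. With either covariate 1 cytokine gene was higher, and with the Actb covariate 2 interferon genes. With the replicate number as a block over 12 arrays 1 cytokine and 1 adipocyte gene were higher, and on the 6 arrays alone with that block 6 cytokine and 4 interferon genes were higher, 2 adipocyte genes higher and 1 lower, and 1 glycolysis and hypoxia gene higher and 4 lower. Esr1, the estrogen receptor alpha, read 7.58, 7.65 and 8.24 on the c-kit+ arrays and 7.55, 7.5 and 7.73 on the CD44+ arrays, which overlapped (difference 0.23, SE 0.15, 95% interval -0.1 to 0.57, adjusted p 0.748). Esr2, the receptor beta, read 4.07, 4.25 and 4.62 against 4.03, 4.31 and 4.47, near background in both fractions.

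The same contrast in the control cultures, on 6 other arrays, had 418 genes passing (2.30%), 320 lower (1.76%) and 98 higher (0.539%) in c-kit+. Of these, 318 also passed in estradiol cultures in the same direction (285 lower, 33 higher) and none in the opposite one, which is 65.8% of the estradiol calls and 76.1% of the control calls. By value alone, 423 of the 424 lower genes were lower in control cultures too, and 58 of the 59 higher genes higher. Col1a2 differed by -3.37 there, Acta2 by -2.3, Ghr by -3.11 and Mertk by 1.02. Across all genes, which are not independent replicates, the differences of the 2 cultures correlated with a Pearson r of 0.809 and a Spearman rho of 0.451. The count in control cultures was 221 without CD44+ control replicate 3 and 238 without c-kit+ control replicate 1.

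Whether the difference between the fractions itself differed between estradiol and control cultures was tested as the interaction in limma. No gene passed (0%), 296 had an unadjusted p under 0.05, the smallest adjusted p was 1, and no other tool was run. For Col1a2 the difference between the cultures was -0.17 (95% interval -1.38 to 1.04), for Tagln -0.55 (-1.34 to 0.24) and for Acta2 -0.1 (-0.77 to 0.58), so that changes of about 2-fold in Col1a2 lay inside the interval. For Kit it was 0.05 (-0.32 to 0.41) and for Cd44 -0.01 (-0.43 to 0.41). The genes of smallest interaction p were Btla, Gm9947, 4933428M09Rik, H2bc18, Hcrtr2 and Trp53rkb, with values from -0.73 to 0.58, and the interaction passed for none. Btla did pass in the estradiol contrast (-0.39, adjusted p 0.0375), at a level near background. It lost that call whichever of the 6 estradiol arrays was left out (between 0.0556 and 0.173).

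**Figure D5:**
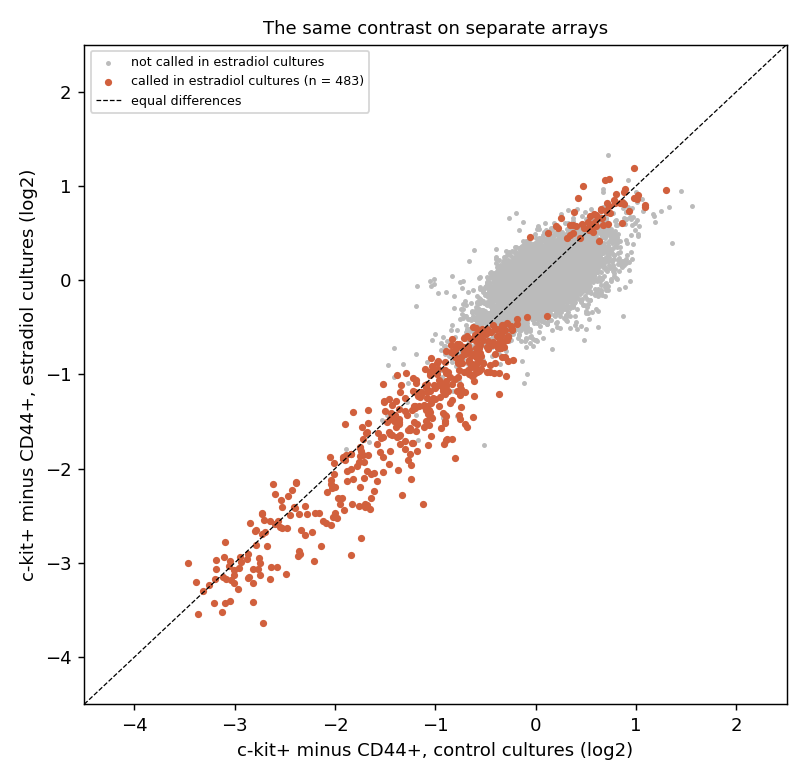
Difference between the fractions (c-kit+ minus CD44+, log2) in estradiol cultures (vertical axis) against that in control cultures (horizontal axis) for every gene, with genes that passed in estradiol cultures in red, others in grey and a dashed line where both are equal. Of the 424 lower genes 423 lie left of 0 on the horizontal axis, and 318 of the 483 red genes also passed in control cultures.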

How the data were processed

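Total RNA of 12 samples was amplified in 2 cycles into biotin-labelled cRNA for Affymetrix arrays, per the labels' protocols. The log2 values analysed here are those the authors deposited. They come from RMA, per the submitters' processing notes (version not given in the sources used here), which also makes arrays alike in distribution, so a shift of most genes would be lost. Values ran from 2.47 to 14.81, with array medians between 4.75 and 4.84. Of 45101 probe sets, 64 were controls, 34945 named 1 gene, 932 several and 9160 none. A gene was read from its probe set of highest mean, and no filter was applied.

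limma 3.58.1 in R 4.3.3 fitted 1 mean per group over all 12 arrays with empirical Bayes moderation. P-values were adjusted over 18193 genes (Benjamini-Hochberg), with a threshold of 0.05. Plots used matplotlib 3.10.9 and pandas 2.3.3 under Python 3.11.15, and permutation tests scipy 1.17.1. On simulated data the estradiol contrast recovered 32, 84, 98 and 100% of 50 genes each, changed by 0.5, 1, 1.5 and 2 on the log2 scale. Of 163 calls 6 were false. The simulated noise was independent between genes and held no shared array effects, so these rates may not carry over to the real arrays.

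The members, the 38 gene lists (628 of 677 entries measured) and the tests were chosen with earlier results of these data known. Named genes are the 14 largest rises and falls, up to 4 passed members of each list (or its 2 of smallest p where none passed), the 6 smallest interaction p-values, and Kit, Cd44, Ptprc, Esr1 and Esr2. Further list members are named to complete or contrast a list, after their values were seen. Arrays of equal replicate number were taken to pair where the correlation of their deviations from the group means was above 0.1 in every case. Estradiol arrays met this (0.447, 0.192 and 0.312) and control arrays did not (0.175, 0.122 and -0.208). The main fit held no replicate block, so it did not use the pairing of the estradiol arrays. Alternatives were the mean of probe sets, every probe set, brighter genes, quantile normalization, median centring, a robust trend, array weights, the replicate block, the 6 arrays alone, other thresholds and leaving out each array. Chosen only after seeing the data were the Actb and Gapdh covariates, leaving out c-kit+ control replicate 3 and the control contrast under these settings.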

Additional observations from a re-analysis of the deposited data

Results flagged for a closer look

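In 3 of the named genes the c-kit+ and CD44+ arrays did not overlap in either culture and were ordered in opposite ways in estradiol and control cultures. The share of such genes over all genes is not given here. In estradiol cultures alone, 8.15% of all genes did not overlap with c-kit+ below and 10.0% with c-kit+ above. Btla and 4933428M09Rik were named for their small interaction p, so their opposite order is no support for an interaction. The interaction was 0.34 for Hba-a1, -0.5 for Btla and 0.49 for 4933428M09Rik, and in limma none of these passed (adjusted p 1 for each). Hba-a1, a hemoglobin chain, and Btla, a lymphocyte receptor, read between 3.43 and 3.93 on every array, about the level of the Y-linked probe sets.

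Probe sets with no gene or several genes stood outside the comparisons. Of 10092 such probe sets, 32 passed in the estradiol contrast (0.317%), 26 lower and 6 higher in c-kit+. Of the 26 lower, 14 also passed as lower in control cultures. The largest fall was -2.99 and the largest rise 1.65.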

How the results depend on the processing

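None of the 87 named genes that passed changed sign. With probe sets averaged several falls were smaller, such as that of Rspo2 at -1.64, while that of Serpinh1 was larger at -3.41. Of them 52 kept their call under every alternative and 35 lost it under 1 or more, 23 of them with the Actb covariate and 19 with the Gapdh covariate. The interaction stayed at 0 genes under every alternative run.

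In the estradiol contrast (483 genes, 59 higher, 424 lower), leaving out an estradiol array gave 269 to 436 genes, 16 to 52 higher and 252 to 408 lower, and leaving out c-kit+ control replicate 3 gave 594, 111 and 483. Genes at or above the median level gave 250 (37 and 213), adjusted p 0.01 gave 274 (12 and 262), and array weights 779 (214 higher). Higher genes numbered 98 after quantile normalization, 110 after median centring (22.7% of the calls against 12.2%), 109 at an adjusted p of 0.10, 33 with the Actb and 39 with the Gapdh covariate. With the replicate number as a block, 134 were higher over 12 arrays, and on the 6 arrays alone 134 were higher without it and 399 with it, where 1143 passed and 744 were lower. The block over 12 arrays kept 477 of the 483 calls and the block on the 6 arrays alone kept all 483. The 6 arrays without it kept 462.

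In the control contrast (418, 98 and 320), leaving out an array gave 221 to 456, 27 to 147 and 194 to 358. Adjusted p 0.01 gave 203 (25 and 178), 0.10 gave 671 (231 higher), and array weights 1058 (575 and 483). The block, whose pairing control arrays did not meet, gave 693 (233 higher), the Actb covariate 257 (48 and 209) and the Gapdh covariate 254 (35 higher). Lower genes were 195 among brighter genes, and higher genes 150 over every probe set and 240 after median centring (46.1% against 23.4%). The causes were not tested. Signal near background limits the folds of low genes.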
